A study of Sus scrofa with 36 samples.

Results

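The MHC class II genes were followed in the thyroid gland of 36 castrated male pigs, with 1 pig on each 1-colour Agilent porcine array. Members were SLA-DRA, SLA-DRB1, SLA-DQA1, SLA-DQB1, SLA-DMA, SLA-DMB, SLA-DOA, SLA-DOB, CD74 and CIITA, where SLA stands for swine leukocyte antigen, and a probe belonged to a gene when its gene name, or the symbol in brackets in its description, was that gene. This gave 28 probes of 8 of the 10 genes, out of 60305 probes and 14011 named genes on the array. SLA-DRA had 7 probes, SLA-DRB1, SLA-DQB1 and CD74 had 4 each, SLA-DOB had 3, and SLA-DQA1, SLA-DMA and SLA-DMB had 2 each. No probe met the rule for SLA-DOA or CIITA. All 28 probes were well above background on all 36 arrays.

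The pigs were Creole (CR), Large White (LW) or a cross of both called F1, with 12 pigs of each. All entered the experiment at 11 weeks of age. In each breed, 6 pigs were labelled 24 °C and were slaughtered before the heat exposure, and 6 were labelled 30 °C and were slaughtered after it. The protocol text gives the exposure as 5 days at 32 °C, and the study's methods put the slaughter of these pigs at 4 or 5 days. Groups are written as breed and labelled temperature, for example CR 24. Temperature therefore cannot be told apart from the time of slaughter and the age that goes with it, nor a breed from the few families that stand for it. The pens, days of slaughter and parents of the pigs are not in the labels and were not used, so littermates counted as independent pigs. The gland itself was present in all groups: a score over 9 measured follicular cell markers, among them TG, PAX8 and FOXE1, lay between 13.39 and 13.99 (mean log2 intensity) in all 36 pigs, and 0 of these 9 genes changed with heat. Between the breeds, the follicular marker NKX2-1 was higher in LW than in CR by 0.17 (limma, adjusted p = 0.031). The other markers of this list were not called, beside 12.9% of all tested probes that were. Blood and tissue leukocytes of the gland are in the same RNA, so fewer cells of a type and less RNA per cell cannot be told apart in these bulk samples.

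MHC class II molecules hold peptides from proteins that a cell has taken up and show them to helper T cells. An alpha and a beta chain, encoded by DRA and DRB1 or by DQA1 and DQB1, pair in the endoplasmic reticulum with the invariant chain CD74, which blocks the groove until the endosome, where DM (DMA with DMB) exchanges the last piece of CD74 for a peptide and DO (DOA with DOB) holds DM back. CIITA is the coactivator that switches the whole group on, and interferon gamma is its best known inducer. Dendritic cells, macrophages and B cells carry the molecules at all times, and follicular cells of the thyroid are known to gain them in autoimmune disease of the gland. DQ and DRB genes are among the most polymorphic of the genome. In the pig gene list (RefSeq, assembly Sscrofa11.1) the SLA genes of the group lie on a single chromosome in the order DRA, DRB1, DQA1, DQB1, DOB, DMB, DMA and DOA, while CD74 and CIITA lie on 2 others.

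Each probe is a 60-base DNA oligonucleotide, and its sequence is that of the scanner files, 5′ to 3′. Of the 28 member probes, the only one called between LW and CR in the analysis as reported, a probe of SLA-DMB, is shown first. Probes of SLA-DRA and of the invariant chain CD74 follow. No letter is capitalised in these because no stretch of them is singled out. The other genes are set against SLA-DRA below by another of its probes, A_72_P640825.
SLA-DMB A_72_P629649: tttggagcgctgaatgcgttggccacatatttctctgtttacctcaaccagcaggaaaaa
SLA-DRA A_72_P561324: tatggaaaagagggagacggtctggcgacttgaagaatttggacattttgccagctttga
CD74 A_72_P223292: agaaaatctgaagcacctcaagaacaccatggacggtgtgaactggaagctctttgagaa

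The next pair is shown because it reads nearly the same stretch of DQ alpha, yet between LW and CR only the second of its probes was called. Whether the breed differences of these probes differ was not tested. The first carries the gene name SLA-DQA1 in the files and the second the name SLA-DQA, which the rule does not take in. The gene list ties the second to SLA-DQA1 as well. They overlap over 59 bases with 5 mismatches, and capitals mark the bases that differ.
SLA-DQA1 A_72_P743257: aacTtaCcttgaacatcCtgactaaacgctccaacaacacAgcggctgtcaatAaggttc
SLA-DQA A_72_P763148: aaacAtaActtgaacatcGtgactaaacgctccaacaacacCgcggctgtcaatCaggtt

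A pair of SLA-DRB1 probes shows the opposite case, probes that share a run of 38 bases, in capitals, and moved together from pig to pig.
SLA-DRB1 A_72_P079096: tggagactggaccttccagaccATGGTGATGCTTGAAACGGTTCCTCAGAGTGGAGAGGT
SLA-DRB1 A_72_P626735: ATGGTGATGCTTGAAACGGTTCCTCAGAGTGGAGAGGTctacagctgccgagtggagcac

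The probe with the highest mean over all arrays was taken as the lead probe of its gene. Values are log2 of the quantile-normalized median spot intensity. A value of 1 probe is not set against that of another, since probes differ in how well they bind. The alpha chain gene SLA-DRA, read by its lead probe A_72_P640825, had in CR 24 a lowest, median and highest value of 14.81, 15.01 and 15.21, and in CR 30 of 14.78, 15.18 and 15.60. In F1 24 these were 14.57, 15.17 and 15.38, and in F1 30 they were 14.79, 15.16 and 15.51. In LW 24 they were 15.03, 15.20 and 15.63, and in LW 30 they were 14.69, 15.14 and 15.79. All 6 groups overlapped. SLA-DRB1, the beta chain that pairs with DRA (A_72_P545751), ranged from 13.17 in a LW 30 pig to 14.78 in another LW 30 pig, and the group means lay between 13.97 ± 0.24 in CR 24 and 14.22 ± 0.43 in LW 24 (SD, n = 6 each).

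For the beta chain of DQ, SLA-DQB1 (A_72_P039061), the lowest, median and highest values were 13.45, 13.83 and 14.28 in CR 24, and 13.47, 14.02 and 14.53 in CR 30. They were 13.63, 14.05 and 14.58 in F1 24, and 14.14, 14.35 and 14.59 in F1 30. They were 14.08, 14.35 and 14.60 in LW 24, and 13.68, 14.32 and 14.57 in LW 30. The 2 lowest values were from CR pigs, and the ranges of all 3 breeds overlapped. CD74, the invariant chain (A_72_P395573), had 11.94, 12.02 and 12.23 in CR 24 and 11.85, 12.09 and 12.51 in CR 30. In LW 24 these values were 12.15, 12.35 and 12.70, in LW 30 they were 11.86, 12.41 and 12.78, and the F1 pigs lay between 11.73 and 12.58.

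The DM chains, which exchange the peptide, varied least among the lead probes. SLA-DMA (A_72_P025111) lay between 12.42 and 13.19 over all pigs, with group means from 12.71 ± 0.24 to 12.82 ± 0.22. SLA-DMB (A_72_P375073) lay between 11.73 and 12.62, with group means from 12.07 ± 0.16 to 12.28 ± 0.21. SLA-DOB, the beta chain of the DM inhibitor (A_72_P300459), lay between 7.27 and 8.70, and its group means ran from 7.61 ± 0.20 in F1 24 to 8.0 ± 0.40 in CR 30. The 6 groups of each of these genes overlapped. The lead probe of SLA-DQA1, the alpha chain of DQ, varied far more and is described with its pigs below.

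**Figure D1:**
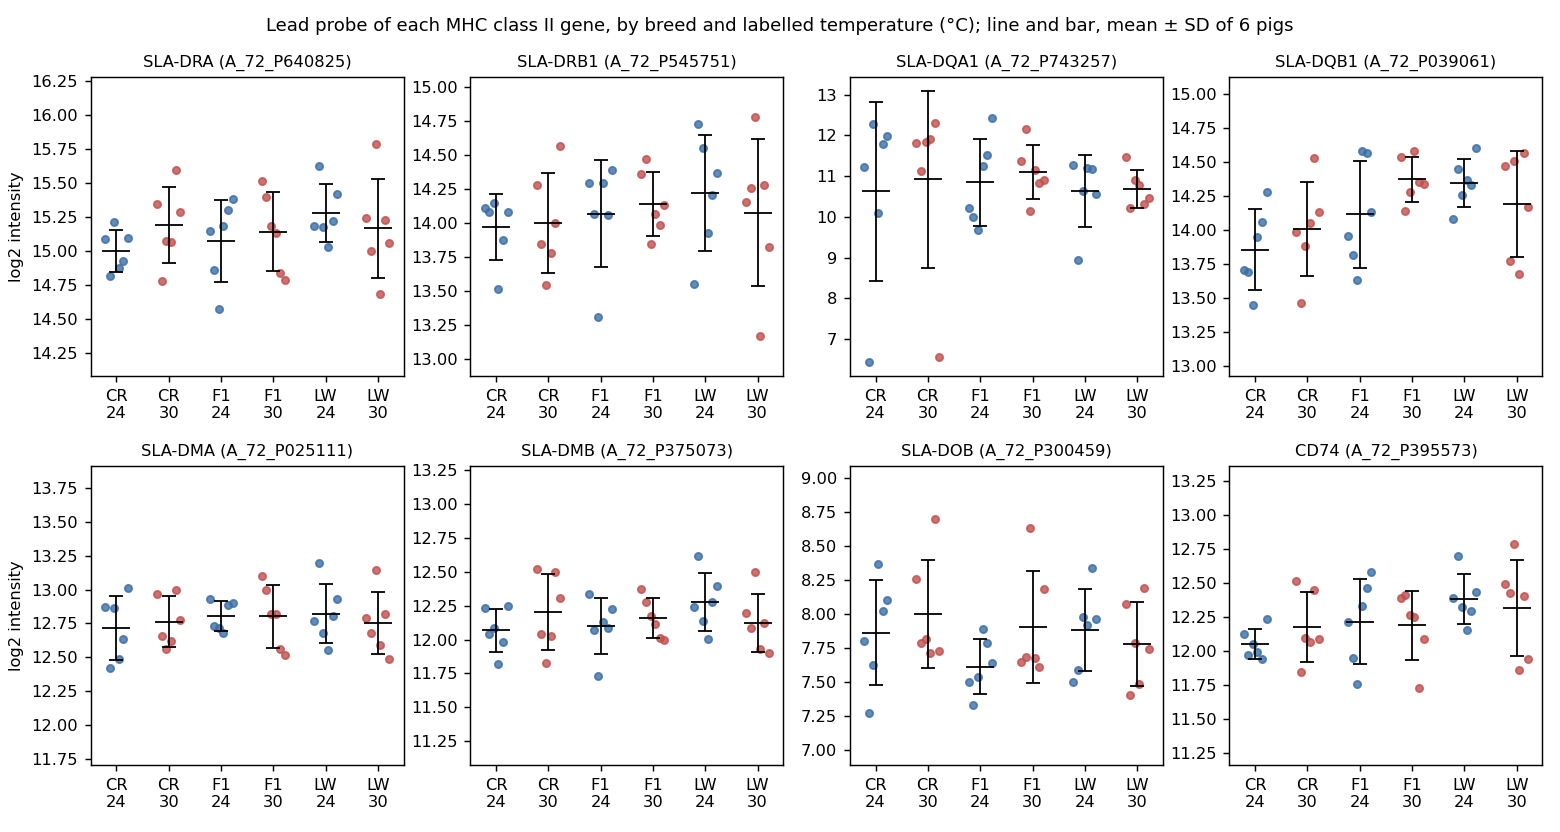
Log2 intensity of the lead probe of 8 MHC class II genes in the 6 groups of breed and labelled temperature (blue 24 °C, red 30 °C), 1 point per pig, with the line and bar at the mean ± SD of 6 pigs. Panels other than SLA-DQA1 span about the same number of log2 units, the groups overlap in each, and the SLA-DQA1 panel holds a CR 24 pig at 6.42 and a CR 30 pig at 6.55.

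Whether heat changed the class II genes was asked first. None of the 28 probes was called at 30 against 24 °C over the breeds (limma, Benjamini-Hochberg adjusted p under 0.05), beside 1.18% of all 46222 tested probes, so a count of 0 among 28 lies close to the background. No member probe had an unadjusted p under 0.05, which 9.74% of all tested probes had. The differences in log2 intensity ran from −0.13 to 0.20, with 19 above and 9 below 0 and a median of 0.03 beside 0.01 over all tested probes. Adjusted p lay between 0.85 and 0.99.

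For SLA-DRA the heat difference was 0.05 ± 0.09 (SE, 36 pigs), with a 95% interval of −0.13 to 0.23, and for SLA-DRB1 it was −0.01 ± 0.12, with an interval of −0.26 to 0.23. SLA-DQB1 differed by 0.09 ± 0.10 and CD74 by 0.01 ± 0.08, and the interval of CD74 ran from −0.16 to 0.18. The intervals of SLA-DMA (−0.14 to 0.13) and SLA-DMB (−0.13 to 0.15) were the narrowest among the lead probes, and that of SLA-DQA1 (−0.69 to 1.09) was the widest. SLA-DOB differed by 0.11 ± 0.11, with an interval of −0.12 to 0.33.

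Heat was also compared within each breed. In CR pigs 27 of 28 probes were above 0 at 30 °C with a median difference of 0.14, in F1 pigs 15 were above 0 with a median of 0.01, and in LW pigs 4 were above 0 with a median of −0.09. None was called in any breed, beside 0.387% of all tested probes in CR, 0.383% in F1 and 0% in LW. At an unadjusted p under 0.05 there were 0 member probes in CR, 1 in F1 and 0 in LW, beside 5.75%, 10.6% and 4.01% of all tested probes. The test of whether the heat difference varied with breed called 0 member probes beside 0% of all tested probes, none had an unadjusted p under 0.05, and their lowest unadjusted p was 0.13 (limma, 2 interaction terms). The lead probes of all 8 genes had a heat difference that was lower in LW than in CR, which is a count of signs over genes that vary together and not a test.

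The breeds were compared over both temperatures. SLA-DMB, the beta chain of the peptide exchanger, was higher in LW than in CR pigs by its probe A_72_P629649, the only one of the 28 called, beside 12.9% of all tested probes. That share is above the members' own, and 7 of 28 had an unadjusted p under 0.05, beside 26.2% of all tested probes. In CR 24 this SLA-DMB probe had a lowest, median and highest value of 9.15, 9.25 and 9.52, and in LW 24 of 9.55, 9.73 and 10.06. In CR 30 the values were 9.17, 9.27 and 9.86, and in LW 30 they were 9.23, 9.49 and 10.12. The F1 pigs ranged from 9.23 to 9.93 at 24 °C, which overlaps both breeds. At 30 °C they ranged from 9.21 to 9.67, which lies within the CR 30 range. So all LW pigs were above all CR pigs at 24 °C, and the breeds overlapped at 30 °C. The difference was 0.31 ± 0.10 (SE, 12 against 12 pigs, 95% interval 0.11 to 0.50, limma adjusted p = 0.031).

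On slides 1 to 5, the LW minus CR difference of SLA-DMB A_72_P629649 was 0.23, 0.70, 0.23, 0.02 and 0.42. Slide 5 held only 1 CR pig, CR 30 replicate 6, and its LW pigs were all LW 24. Breed and temperature therefore cannot be told apart within slide 5, for this or any other probe. Over all slides, the difference of A_72_P629649 was followed further. It was 0.32 with the slide as a random block (adjusted p = 0.019). The call was lost when any of 6 pigs was left out: it was 0.29 without CR 24 replicate 1 (adjusted p = 0.055), 0.28 without CR 24 replicate 4 (0.054), 0.29 without CR 24 replicate 5 (0.052), 0.29 without CR 30 replicate 2 (0.051), 0.27 without LW 24 replicate 2 (0.062) and 0.26 without LW 30 replicate 3 (0.067). The lead probe of SLA-DMB differed by 0.06 ± 0.09 (adjusted p = 0.70, interval −0.11 to 0.24), although both probes carry the same accession and correlated over pigs with r = 0.79. Whether the 2 probes differ in their breed difference was not tested.

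Of all 28 LW minus CR differences, 22 were above 0, with a median of 0.16 beside 0.00 over all tested probes. The 7 SLA-DRA probes differed by 0.12 to 0.32 and the 4 SLA-DRB1 probes by 0.16 to 0.32, and 0 of these 11 were called. CD74 differed by 0.24 ± 0.10 in its lead probe (adjusted p = 0.12) and by 0.24 in A_72_P796773 (adjusted p = 0.054). SLA-DQB1 differed by 0.34 in its lead probe (adjusted p = 0.065), while its 3 other probes differed by −0.08 to −0.05. SLA-DMA differed by 0.05 and 0.14 and SLA-DOB by −0.10 to 0.02.

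Slide bore on these counts. With the slide as a random block, 4 of 28 probes were called, while the share over all tested probes was 14.7%. These were SLA-DMB A_72_P629649, SLA-DQA1 A_72_P765361 at 1.24 (adjusted p = 0.028), CD74 A_72_P796773 at 0.25 (adjusted p = 0.042) and SLA-DQB1 A_72_P039061 at 0.34 (adjusted p = 0.049). Within slides 1 to 5 the SLA-DQB1 difference was 0.48, 0.62, 0.19, −0.02 and 0.34, and that of CD74 A_72_P796773 was 0.24, 0.63, 0.23, −0.18 and 0.22. Both were near or below 0 on slide 4.

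**Figure D2:**
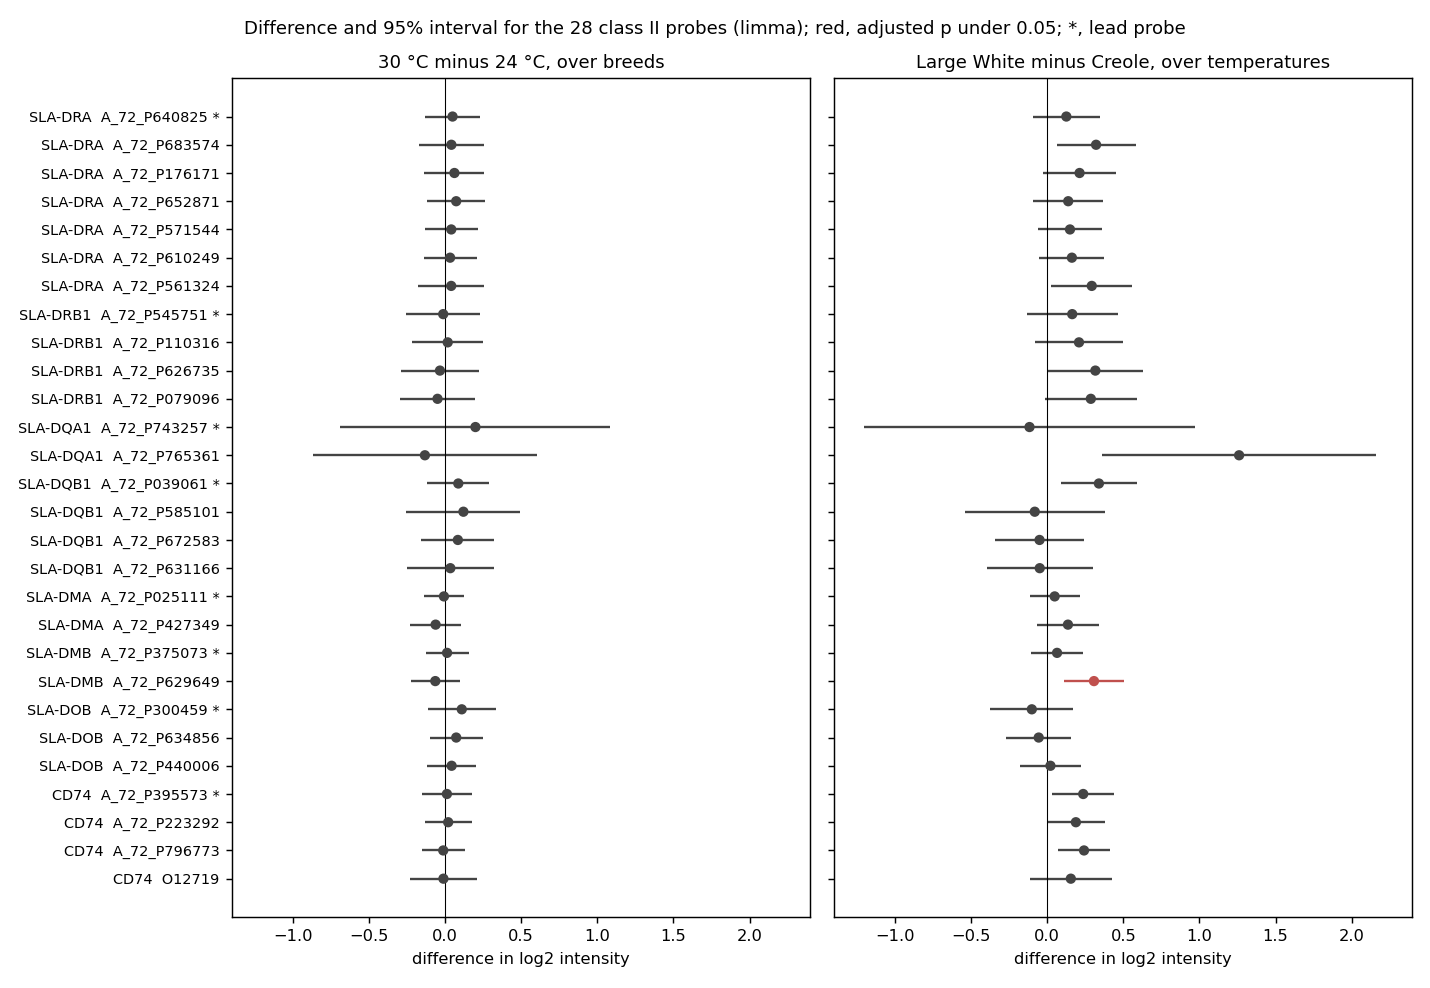
Differences in log2 intensity (x axis) with 95% intervals for the 28 class II probes, left for 30 minus 24 °C over breeds and right for Large White minus Creole over temperatures; a star marks the lead probe of a gene and red an adjusted p under 0.05. The heat differences lie between −0.13 and 0.20, and on the right only the second SLA-DMB probe, at 0.31, is red.

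By temperature, the LW minus CR difference had a median of 0.28 over the 28 probes at 24 °C, where 27 were above 0, and of 0.07 at 30 °C, where 16 were above 0. The heat difference within CR and the breed difference at 24 °C share the CR 24 pigs. None of the probes was called at 24 °C (background 3.46%) or at 30 °C (background 3.67%), and 9 and 0 had an unadjusted p under 0.05, beside 16.9% and 17.1% of all tested probes. With the slide as a block, 1 probe was called at 24 °C, beside 5.11% of all tested probes for a fixed and 4.38% for a random block. For SLA-DRA the difference was 0.28 ± 0.15 at 24 °C and −0.02 ± 0.15 at 30 °C, for SLA-DQB1 it was 0.49 ± 0.17 and 0.19 ± 0.17, and for CD74 it was 0.33 ± 0.14 and 0.14 ± 0.14.

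The F1 pigs were compared with both parental breeds. Against CR, 23 of 28 probes were above 0 with a median difference of 0.09, and none was called (background 3.38%). Against LW, 22 of 28 were below 0 with a median of −0.07, and none was called (background 1.99%). Against the mean of both breeds, 15 were above 0 with a median of 0.02, and none was called (background 0.439%). At an unadjusted p under 0.05 these 3 comparisons had 2, 0 and 0 member probes, beside 17.2%, 13.4% and 10.4% of all tested probes. SLA-DQB1 was 0.31 ± 0.12 above CR in the F1 pigs (adjusted p = 0.17) and −0.03 ± 0.12 from LW (adjusted p = 0.97).

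The 2 SLA-DQA1 probes taken in by the rule stood apart in their spread. The SD within groups was 1.42 log2 units for the lead probe A_72_P743257 and 1.15 for A_72_P765361. The median over all tested probes was 0.18, which put these 2 probes at the 99.9th and 99.8th percentile. The SLA-DQB1 probe A_72_P585101 followed at 0.59, and the other 25 member probes had SDs of 0.21 to 0.45. In CR 24 the lead probe had a lowest, median and highest value of 6.42, 11.50 and 12.28, and in CR 30 of 6.55, 11.83 and 12.30. In F1 24 these were 9.68, 10.73 and 12.44, and in F1 30 they were 10.15, 11.02 and 12.16. In LW 24 they were 8.94, 10.91 and 11.28, and in LW 30 they were 10.21, 10.62 and 11.47. The gene list ties the probes named SLA-DQA to SLA-DQA1 as well. Of these, A_72_P763148 lay between 9.71 and 12.42 over all pigs. A_72_P721473 lay between 14.36 and 15.59, and A_72_P712598 between 11.83 and 13.25. The wide spread is therefore not shared by every probe tied to the gene.

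The low SLA-DQA1 values came from 2 CR pigs. CR 24 replicate 2 was at 6.42 and CR 30 replicate 6 at 6.55, and the other 34 pigs were at 8.94 or above. In the same 2 pigs the neighbouring probe SLA-DQA A_72_P763148 was at 9.71 and 9.86, the 2 lowest of its 36 values, and SLA-DQB1 A_72_P585101 was at 12.07 and 12.51, again the 2 lowest. SLA-DQB1 A_72_P631166 was at 8.38 in both, within its 3 lowest values. By contrast, SLA-DQA1 A_72_P765361 was at 9.09 and 9.13, the lead SLA-DQB1 probe at 13.69 and 14.13, and SLA-DRA at 14.81 and 15.28.

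The second SLA-DQA1 probe, A_72_P765361, was low in other CR pigs. It was at 5.59 in CR 24 replicate 3, 6.94 in CR 24 replicate 4 and 6.54 in CR 30 replicate 5, where A_72_P743257 was at 12.28, 10.09 and 12.30. The other 33 pigs were at 7.88 or above. Over the 36 pigs the 2 SLA-DQA1 probes correlated with r = −0.08 (rho = 0.06, permutation test, adjusted p = 0.65 over 20 relations between a probe and the lead probe of its gene).

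A_72_P765361 also moved with the slide. Its median was 8.88 on slide 1, 8.35 on slide 2, 10.44 on slide 3, 10.32 on slide 4 and 8.98 on slide 5, a range of 2.08. No pig on slides 1, 2 and 5 was above 9.39, while those on slides 3 and 4 were at 10.07 or above except 4 CR pigs, CR 24 replicate 5 at 9.79 and CR 30 replicates 3, 4 and 5 at 8.94, 9.01 and 6.54. The corresponding range was 1.53 for A_72_P743257, 0.94 for SLA-DQB1 A_72_P585101 and 0.12 to 0.70 for the other 25 member probes. LW minus CR for A_72_P765361 was 1.26 ± 0.44 (adjusted p = 0.055), and within slides 1 to 5 it was 0.33, 2.06, 1.13, 2.0 and −0.15. For A_72_P743257 it was −0.12 ± 0.54 (adjusted p = 0.93, interval −1.20 to 0.97).

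The difference between the printed DQ alpha pair, A_72_P763148 minus A_72_P743257, was followed from pig to pig, since its absolute size and sign have no meaning but its change between pigs does. It lay between 0.91 and 1.44 in the 12 LW pigs. In the F1 pigs it lay between −0.51 and 1.18 with a median of 0.90. In the CR pigs it lay between −1.43 and 3.31 with a median of −0.45, and both highest values were in the 2 pigs where A_72_P743257 was low. The difference thus spanned a narrower range in the LW pigs than in the F1 or CR pigs. This describes a pair chosen for its sequence overlap with its breed results known, and carries no test. Another DQ alpha pair, A_72_P765361 with A_72_P244477, overlaps over 56 bases with 3 mismatches and is not described here. SLA-DQA A_72_P763148 itself was higher in LW than in CR by 0.89 ± 0.23 (adjusted p = 0.0075) and higher in F1 than in CR by 0.83 ± 0.23 (adjusted p = 0.038). With the slide as a random block the LW difference was 0.90 (adjusted p = 0.0046), and within slides 1 to 5 it was 2.06, 0.55, 0.08, 0.37 and 2.21. Slides 1 and 5, which gave the largest values, each hold 1 of the 2 CR pigs where A_72_P743257 was low. On slide 5 that pig, CR 30 replicate 6, was the only CR pig and the LW pigs were all LW 24. The F1 call was lost when array position entered the model (0.83, adjusted p = 0.076) and when single pigs were left out in 11 of 36 cases, while the LW call held in 36 of 36. The 6 other SLA-DQA probes differed between LW and CR by −0.24 to 0.09, and 0 of them were called. In so polymorphic a gene, less RNA and RNA that matches the probe less well cannot be told apart, and the probes were not matched to the alleles of these pigs.

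**Figure D3:**
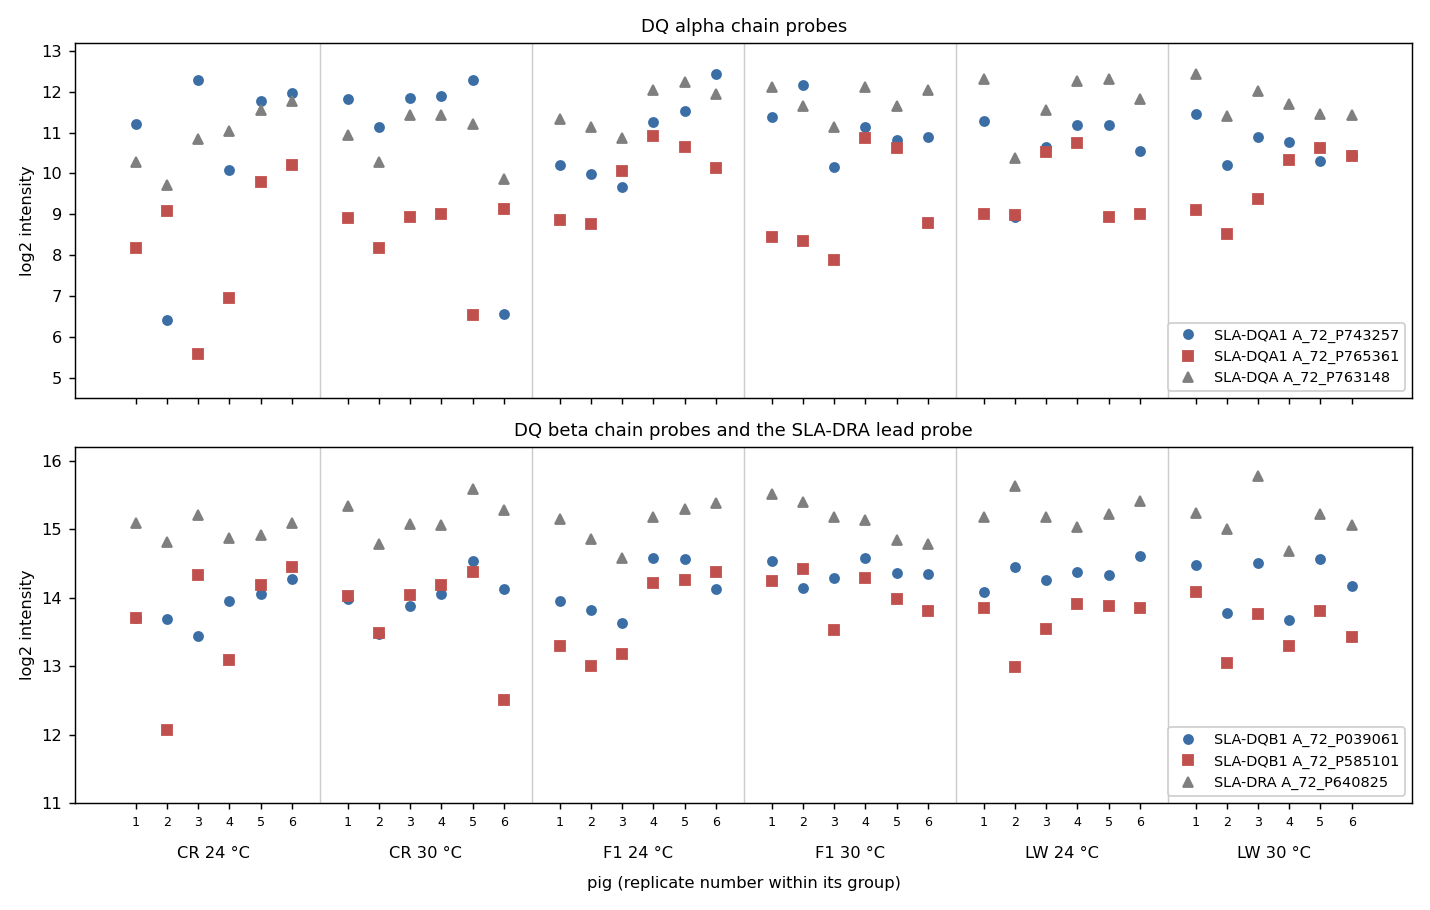
Log2 intensity (y axis) in each of the 36 pigs (x axis, by group and replicate number) for 3 DQ alpha probes above and for 2 SLA-DQB1 probes and the SLA-DRA lead probe below. CR 24 replicate 2 and CR 30 replicate 6 are low in the blue DQ alpha probe (6.42 and 6.55) and in the red SLA-DQB1 probe (12.07 and 12.51), whereas the red DQ alpha probe is low in CR 24 replicates 3 and 4 and CR 30 replicate 5.

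From pig to pig, the lead probes of 5 of the 7 other class II genes moved together with that of SLA-DRA. Those of SLA-DOB and SLA-DQA1 had a Pearson's r that did not pass the test. SLA-DQA1 stands here for A_72_P743257 alone, in which 2 CR pigs lay far below the rest. The probes named SLA-DQA were not set against SLA-DRA. With the 6 group means subtracted, the lead probe of SLA-DRA correlated over the 36 pigs with CD74 (Pearson's r = 0.88, Spearman's rho = 0.86), SLA-DMB (0.83 and 0.86), SLA-DMA (0.83 and 0.86) and SLA-DRB1 (0.71 and 0.69). Each of these 4 had a permutation p of 1e-05, the smallest that 100000 resamples can give, and an adjusted p of 1.7e-05 over 7 relations. SLA-DQB1 followed with r = 0.59 and rho = 0.57 (permutation test, adjusted p = 0.00027 and 0.00055). SLA-DOB had r = 0.23 and rho = 0.26 (adjusted p = 0.21 and 0.13), and SLA-DQA1 had r = 0.22 and rho = 0.39 (adjusted p = 0.21 and 0.023). Over 46155 other tested probes the median r with SLA-DRA was 0.00, the 95th percentile was 0.37, and 19 probes were above 0.8.

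Without the 2 pigs farthest from the SLA-DRA median, r was 0.85 for CD74, 0.78 for SLA-DMB, 0.83 for SLA-DMA, 0.61 for SLA-DRB1 and 0.53 for SLA-DQB1. Within CR, F1 and LW pigs, r with CD74 was 0.82, 0.92 and 0.88, and with SLA-DRB1 it was 0.49, 0.75 and 0.82. SLA-DQA1 had 0.26, 0.72 and −0.29. On slides 1 to 4, with 8 pigs each, r with CD74 was 0.83, 0.90, 0.96 and 0.87, and with SLA-DMA it was 0.91, 0.93, 0.34 and 0.74. Slide 5 holds 4 pigs and gave no value.

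**Figure D4:**
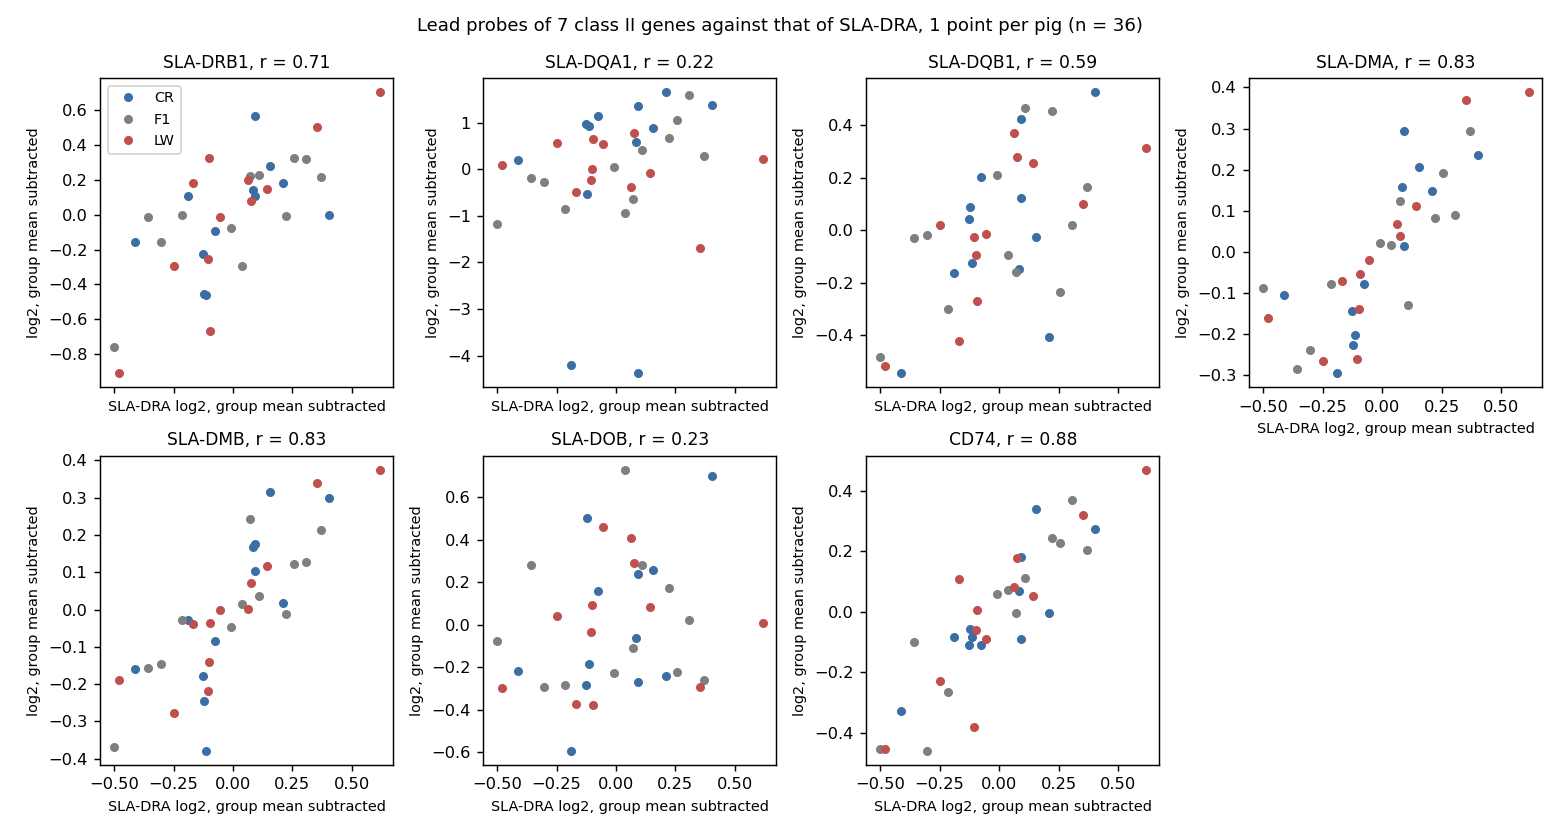
Log2 intensity of the lead probe of 7 class II genes (y axes) against that of SLA-DRA (x axes), both with the mean of the pig's group subtracted, 1 point per pig, coloured by breed. The points lie close to a line for CD74, SLA-DMB and SLA-DMA (r = 0.88, 0.83 and 0.83), more loosely for SLA-DRB1 and SLA-DQB1 (0.71 and 0.59), and scatter for SLA-DOB and SLA-DQA1 (0.23 and 0.22), the last with 2 CR pigs far below the rest.

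Probes of a gene were compared with its lead probe in the same way. The other probes of SLA-DRA gave r = 0.75 to 0.97, those of SLA-DRB1 0.96 to 0.98, and those of SLA-DOB 0.75 and 0.89. SLA-DQB1 was looser at 0.43, 0.49 and 0.72. CD74 gave 0.96 for 2 probes and 0.51 for O12719, whose accession differs from that of the other 3. The slide medians of O12719 also spanned 0.70, against 0.19 to 0.24 for the other 3, and the cause of its lower r was not tested.

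Of the genes outside the group, the 8 whose best probe was most like SLA-DRA over the 36 pigs, among 12258 named genes, were IRF5 (r = 0.81), ACTA2 (0.74), CD48 (0.72), CD53 (0.72), PTGS1 (0.72), C3 (0.71), ATP8B4 (0.70) and JAK3 (0.69). IRF5 is a transcription factor of myeloid cells and B cells, CD48 and CD53 are surface proteins of leukocytes, and ACTA2 is the actin of smooth muscle. These are the top of a ranking and carry no test.

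The marker lists of cells that carry class II molecules were set beside SLA-DRA. A score over 13 macrophage and monocyte markers correlated with it over pigs with r = 0.56 and rho = 0.57 (permutation test, adjusted p = 0.0021 over 6 relations), and r was 0.60 in CR, 0.31 in F1 and 0.83 in LW. The score over 5 dendritic cell markers gave r = 0.53 and rho = 0.51 (adjusted p = 0.0027), that over 10 T cell markers 0.42 and 0.45 (adjusted p = 0.021), and that over 7 B and plasma cell markers 0.28 and 0.35 (adjusted p = 0.14). Within CR, F1 and LW pigs, r was 0.14, 0.43 and 0.84 for the dendritic cell score, and 0.72, 0.12 and 0.40 for the T cell score. CD83 varied most of the 5 dendritic cell markers (SD within groups 0.65). Follicular cell markers gave r = −0.18 and rho = −0.18 (adjusted p = 0.34) and thymus markers 0.05 and −0.05 (adjusted p = 0.75). Without the 2 farthest pigs r was 0.48, 0.39, 0.39, 0.18, −0.20 and −0.02 in this order. The mean log2 intensity of the B and plasma cell markers ran from 5.88 (FCRLA) to 8.42 (BLK). That of the thymus markers ran from 5.56 (PTCRA) to 6.91 (PSMB11). The dendritic cell markers ran from 5.79 (CD209) to 10.79 (CD83). The opposite-strand probes described below lay at 4.99 to 6.11. With markers this dim, the low r of the B and plasma cell and thymus scores cannot decide whether such cells went with SLA-DRA. The part of the cells of these lists in the class II values was not tested.

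Of the macrophage markers, LYZ, the lysozyme gene, fell by 0.88 on the log2 scale in LW against CR (adjusted p = 0.012) and the other 12 were not called. The score had a median of 9.76 in CR 24 (9.65 to 10.15) and 9.94 in LW 24 (9.79 to 10.09). It had a median of 9.88 in CR 30 (9.47 to 10.24) and 9.59 in LW 30 (9.32 to 9.89), so the order of the breeds differed between the temperatures and all 4 ranges overlapped. T cell markers included CD247, a signalling chain of the T cell receptor, which was higher in LW by 0.60 (adjusted p = 0.00033), and 9 that were not called. Of the 7 B and plasma cell markers tested, 0 were called in heat or between these breeds. The breed calls in these marker lists stand beside 12.9% of all tested probes.

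The rest of the pathway was described from lists of known members. All 7 factors that bind class II promoters, RFX5, RFXAP, RFXANK, NFYA, NFYB, NFYC and CREB1, were measured, and 0 were called with heat or between LW and CR, with median differences of −0.04 and 0.01. Of 11 genes of interferon gamma signalling, 10 were measured and 0 were called with heat. Both receptor chains were lower in LW than in CR, IFNGR1 by −0.31 (adjusted p = 0.0034) and IFNGR2 by −0.24 (adjusted p = 0.018). Of all tested probes, 12.9% were called between these breeds, so a few calls in a short list lie near the background. IFNG itself, dim at a mean log2 intensity of 5.98, differed by 0.04 (adjusted p = 0.76) and IRF1, an early target, by −0.10 (adjusted p = 0.46).

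In the endosome, 7 of 8 listed genes were measured and 0 were called with heat. CTSH, a cysteine protease, was higher in LW than in CR by 0.28 (adjusted p = 0.0068), while CTSS, the protease that trims CD74, differed by −0.07 (adjusted p = 0.65) and the thiol reductase IFI30 by −0.01 (adjusted p = 0.96). At the cell surface 6 of 8 genes were measured. CD83, which keeps class II molecules on the membrane of mature dendritic cells, was lower at 30 °C by −0.76 (adjusted p = 0.049), the only listed gene called with heat. Of all tested probes, 1.18% were called with heat, so a single call over the lists lies near the background. This call is close to the threshold, and it was not followed with the slide as a block or with pigs left out. CD40, which takes up help from T cells, was lower in LW than in CR by −0.30 (adjusted p = 0.0008). The breed calls of CTSH and CD40 stand beside 12.9% of all tested probes. No probe was found under the names of 9 further class II loci.

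For SLA-DOA, the gene list holds an accession that 3 probes with other names cite, 2 as their own accession and A_72_P213622 in its description. A_72_P213622, named by a gene number, differed by 0.20 with heat (adjusted p = 0.75) and by 0.08 between LW and CR (adjusted p = 0.83), and correlated with SLA-DRA over pigs with r = 0.76 and rho = 0.75 (permutation test, adjusted p = 2.5e-05 over 5 relations). The other 2, A_72_P375623 and A_72_P513855, are named SLA, the symbol of a Src-like adaptor, and share 46 bases. They were higher in LW than in CR by 0.71 ± 0.20 (adjusted p = 0.015) and 0.59 ± 0.19 (adjusted p = 0.030), and lower in F1 than in LW by −0.82 (adjusted p = 0.022) and −0.72 (adjusted p = 0.032). With the slide as a random block the LW minus CR values were 0.72 (adjusted p = 0.012) and 0.60 (adjusted p = 0.025). With 1 pig left out, A_72_P375623 kept both calls in 36 of 36 cases, while A_72_P513855 kept the LW against CR call in 28 (highest adjusted p = 0.060) and the F1 against LW call in 26 (0.064). They correlated with each other with r = 0.98, with A_72_P213622 at r = 0.28 for the first, and with SLA-DRA at 0.50 each. Which gene these 2 probes read is not settled by the files, so their breed difference is not given as one of SLA-DOA.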

How the data were processed

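Thyroid RNA of 36 pigs was hybridised to 1-colour Agilent arrays and read with Feature Extraction 10.10.1.1, per the labels. The deposited scanner files hold spot intensity values that are not scaled between arrays. The authors also deposited log2 values, quantile normalized from the median intensity without background subtraction. The same steps were rerun here: 1319 control spots were left out, 106 non-uniform spots were set to missing, and spots of a probe were averaged. The result differed from the deposited log2 values by a median of 0.0056 over 46097 probes. Probes well above background on at least 5 of 6 arrays of a group were tested (46222). On each array, 72.8% to 80.3% of probes were above background and 0 spots were saturated. The number of arrays limits the precision.

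Tests used limma 3.58.1 in R 4.3.3 with Benjamini-Hochberg adjustment over all tested probes, called at an adjusted p under 0.05. Heat over breeds and breeds over temperatures came from a model with breed and temperature, and all other contrasts from 6 group means. On simulated data, 89% of 100 probes changed by 0.5 log2 units with heat were recovered, and 78% for LW against CR. Those probes were picked from the whole array, with independent noise at their own spread and no slide or litter effect. The class II probes had SDs within groups of 0.21 or more, above the median of 0.18 over all tested probes. The rates therefore do not carry over to them. Correlations used permutation tests with 100000 resamples (scipy 1.17.1), 2-sided. The arrays lay on 5 slides (slides 1 to 4 with all 6 groups, slide 5 with 3), which are the only batch the files give.

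All member genes are named, by the lead probe, the one with the highest mean. Another probe is named where results differ between probes of a gene. The called genes of each list are named, and other listed genes that are named were chosen for their role after their values were seen. Members and lists were chosen with earlier results of these data known. Alternatives were other intensities and scalings, the deposited values, other filters, slide or position as a block, and leaving out each pig. Promoter and protein sequences and probe positions were not analysed here.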

Additional observations from a re-analysis of the deposited data

Results flagged for a closer look

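In groups of 6 pigs, a highest or lowest value that lay far from the other 5 was looked for in 78 groups over 13 class II probes. A gap of more than 0.625 of the group's range was marked. Chance marks about 1 in 20 groups, or 3.9 of 78, and 5 were marked, so the number of marks is near that level. Of the 5, 4 were in the 2 SLA-DQA1 probes.

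For SLA-DQA1 A_72_P743257, CR 24 replicate 2 was at 6.42 with the other pigs of its group at 10.09 to 12.28. CR 30 replicate 6 was at 6.55 with the others at 11.13 to 12.30, and LW 24 replicate 2 was at 8.94 with the others at 10.55 to 11.28. For SLA-DQA1 A_72_P765361, CR 30 replicate 5 was at 6.54 with the others at 8.18 to 9.13. For SLA-DRB1 A_72_P545751, F1 24 replicate 3 was at 13.31 with the others at 14.06 to 14.39, and the same pig was also the lowest of its group for SLA-DRA at 14.57.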

How the results depend on the processing

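No paired analysis was possible because the replicate numbers follow the order of the records and tie no pigs to each other. The count of class II probes called in LW against CR, 1 in the analysis as reported, was 2 with the processed signal scaled to the 75th percentile, 2 with normexp background correction, 3 with the slide as a fixed block, 4 with it as a random block and 3 with the array's position on its slide in the model. At 24 °C it was 1 in place of 0 with the slide as a fixed or random block and with that position in the model. Leaving out 1 pig gave counts of 0 to 4 for LW against CR and 0 to 1 for LW against CR at 24 °C. It gave 0 to 0 for every other comparison. The count for LW against CR was 0 without CR 24 replicate 1 or 4, CR 30 replicate 2, LW 24 replicate 2 or LW 30 replicate 3, 3 without CR 24 replicate 6 or LW 30 replicate 2 or 4, 4 without CR 30 replicate 5, and 2 without CR 30 replicate 1 or 6, F1 24 replicate 3 or 6, F1 30 replicate 5, LW 24 replicate 4 or 5 or LW 30 replicate 6. The count at 24 °C was 1 without CR 30 replicate 1 or LW 30 replicate 3. The SLA-DMB probe A_72_P629649 was called in 30 of 36 such cases (0.26 to 0.36, adjusted p = 0.0085 to 0.067) and in all 10 other settings (adjusted p = 0.0084 to 0.043).

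Differences close to 0 changed sign. For heat this held for CD74 with the processed signal (−0.0051), and for SLA-DMA (0.0063) and SLA-DRB1 (0.0064) with that position in the model. For LW against CR it held for SLA-DQA1 A_72_P743257 with the slide as a fixed block (0.015). When a pig was left out, the heat difference ranged from −0.016 to 0.042 for CD74, −0.031 to 0.017 for SLA-DMA, −0.012 to 0.039 for SLA-DMB, −0.067 to 0.469 for SLA-DQA1 and −0.063 to 0.048 for SLA-DRB1, and LW against CR ranged from −0.522 to 0.035 for SLA-DQA1 A_72_P743257. None of these was called in any setting, and the cause was not tested.

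The heat intervals of the lead probes, other than SLA-DQA1, reach from −0.26 to 0.33 log2 units at their outer ends, with 18 pigs a side. All of them include 0. Each interval holds only for its own gene, and those of SLA-DMA and SLA-DMB were the narrowest. The spread of the SLA-DQA1 lead probe widens its own interval to −0.69 to 1.09.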

Other observations

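The array also holds probes with names outside the rule that read class II sequence. Probes that repeat the 60 bases of a member probe under another name followed it closely, with an SD of the difference over the 36 arrays of 0.05 for CD74 A_72_P223292. The twin of SLA-DRA A_72_P561324 was higher in LW than in CR by 0.37 (limma, adjusted p = 0.043), where the SLA-DRA probe itself differed by 0.29 (adjusted p = 0.15), so the same bases fell on both sides of the threshold. The twin's call was lost when 1 pig was left out in 14 of 36 cases. SLA-DRB1 A_72_P110316 shares 26 bases with a probe named DRB3, with an SD of the difference of 0.07.

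The 8 probes that hold bases of member probes on the opposite strand, for 5 of the genes, had mean log2 intensities of 4.99 to 6.11 and were above background on 1 to 36 of the 36 arrays, and the 4 for SLA-DMA on 9, 11, 35 and 36.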
